A study of Mus musculus with 6 samples.

Results

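The transcripts described here encode enzymes that make and break down heme: Alas1, Alas2, Alad, Urod, Cpox, Ppox and Fech of synthesis, and Hmox1 and Blvrb of breakdown. They were chosen by gene symbol, with earlier values of the same knockout against wild type contrast in view. All 9 genes were on the array table, as 13 of its 11811 probe sets (9 of 7164 named genes), and all 13 probe sets passed the filter on low signal, a mean of at least 100 over the arrays. The study measured total RNA of mouse liver on Affymetrix expression arrays, with an array for each of 6 samples. The labels give 3 as Atp7b knockout (KO903, KO904 and KO905) and 3 as wild type (WT4, WT5 and WT6). Atp7b is the copper-transporting ATPase whose loss causes Wilson disease, and the labels refer to an earlier published knockout line. They give no strain, sex, age, diet or time of sampling, and no added treatment, and do not say which cells carry the deletion or whether a sample was pooled. The series title places the samples early in copper accumulation.

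Heme is assembled along a pathway that starts and ends in mitochondria and passes through the cytosol. ALA synthase catalyses its first step. Alas1 encodes the form present in most tissues, which limits the rate in liver, where heme itself represses it, and Alas2 encodes the erythroid form. In liver much of the heme goes into cytochrome P450 enzymes. Heme oxygenase opens the ring to biliverdin, iron and carbon monoxide, and biliverdin reductases complete the breakdown to bilirubin.

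The DNA before the ALA synthase genes is shown because these genes differed in opposite directions in the knockout liver. The sequences are from RefSeq, build GRCm38.p6, read 5′ to 3′ on the gene's strand, and 7 of the 9 genes had an entry. Each run is the 250 bases before an annotated start. Capitals mark matches, on either strand, to GATAA (bound by GATA factors), to CACCC (bound by KLF factors) or to GCGC, any pair of bases and GCGC, named here the NRF1 motif after a regulator of genes for mitochondrial proteins. The Alas1 run is chr9:106247955-106248204, minus strand, and the Alas2 run is chrX:150547167-150547416, plus strand.
Alas1: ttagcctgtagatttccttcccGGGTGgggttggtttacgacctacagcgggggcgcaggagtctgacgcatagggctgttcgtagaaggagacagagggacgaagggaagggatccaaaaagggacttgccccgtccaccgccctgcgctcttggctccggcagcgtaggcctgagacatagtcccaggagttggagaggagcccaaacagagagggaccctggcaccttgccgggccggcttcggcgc
Alas2: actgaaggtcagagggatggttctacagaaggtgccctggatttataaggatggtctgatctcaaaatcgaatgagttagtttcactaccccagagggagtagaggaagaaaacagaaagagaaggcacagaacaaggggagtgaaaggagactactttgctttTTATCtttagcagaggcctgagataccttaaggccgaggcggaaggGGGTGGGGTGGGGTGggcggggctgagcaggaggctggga
The Alas2 run held 1 GATAA match, on the opposite strand and 86 bases before the start, and 3 CACCC matches that overlap neither it nor each other, 40, 35 and 30 bases before the start. The Alas1 run held 1 CACCC match, 228 bases before the start, and 0 matches to GATAA or the NRF1 motif. A later annotated Alas1 start had 2 matches to the NRF1 motif, which begin 224 and 195 bases before it. They are shown in capitals in stretches of 30 bases, chr9:106247935-106247964 and chr9:106247906-106247935, where the second stretch also holds a CACCC match.
Alas1, stretch 1: gcttcggcgcGCGCGTGCGCgcggcaggcc
Alas1, stretch 2: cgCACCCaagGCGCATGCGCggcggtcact
Over all 32851 upstream windows in the RefSeq table, 22.6% held GATAA, 52.0% held CACCC and 4.98% held the NRF1 motif. Of the other genes with an entry, Cpox held 1 GATAA match, 4 CACCC matches and 0 matches to the NRF1 motif. Alad, Urod, Ppox and Blvrb held neither GATAA nor the NRF1 motif in any window. CACCC had 1 match in 1 of 2 Alad windows and 1 in each Blvrb window, and 0 in Urod and Ppox. GATAA together with several CACCC matches was therefore not particular to Alas2 among these genes. A match is a run of letters, and binding was not measured.

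Values are MAS 5.0 signals, a linear brightness per probe set that the authors scaled per array. Array medians were 330.15 to 342.35 over the 6 arrays. On control probe sets, the signal at the transcript end over that at its start, a gauge of RNA integrity, was highest in WT6. It was 1.466 for actin and 0.9897 for Gapdh there, against 1.101 to 1.283 and 0.8152 to 0.8949 on the other arrays. Its part in the calls that changed without WT6 was not tested. Correlations of log2 signals across probe sets were 0.974 to 0.981 within a genotype and 0.960 to 0.970 between genotypes. The targeted gene had 1 probe set, at 240.5, 231.8 and 184.9 in the knockout and 259, 299.7 and 241 in wild type (log2 difference -0.27 ± 0.16 SE). That difference did not pass in limma (adjusted p = 0.407), and the place of the probe set relative to the deletion was not examined. Hepatocyte markers summed over 9 genes reached 138800 to 157800 in knockout and 146300 to 175400 in wild type samples, high signals in every sample.

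In the knockout liver, Alas1 was 2.14-fold lower on its brighter probe set and Alas2 was 1.999-fold higher. The probe sets of the later synthesis steps differed from wild type by no more than 0.35 on the log2 scale. Of the breakdown enzymes, Blvrb was 1.48-fold higher, and Hmox1 was dim in all samples. A linear model (limma) was fitted to log2(signal + 16) of all 10620 probe sets that passed the signal filter, and called a probe set at a Benjamini-Hochberg adjusted p under 0.05. Fold changes are on that scale. The model called 440 of them, 4.14% (2.05% higher and 2.09% lower). Among the 13 probe sets of the heme enzymes 3 were called, 2 higher and 1 lower. The genes were chosen on this contrast, so that count and the values of these genes are a description, without a test of their own. Nothing states that the samples came from separate animals, and the spread between them may be technical.

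**Figure D1:**
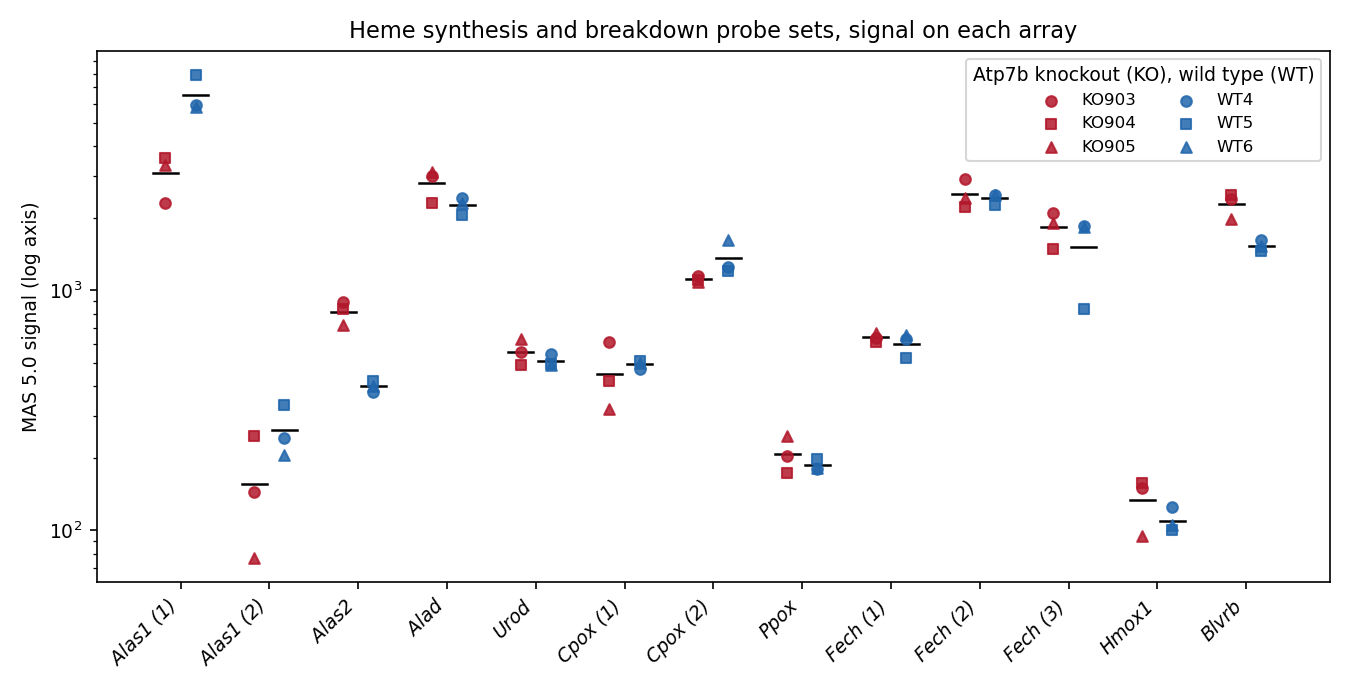
Signal of each heme enzyme probe set on each array, on a log axis, in pathway order from Alas1 to Blvrb, with knockout (red) left of wild type (blue) and black bars at the group means. Numbers in brackets tell probe sets of a gene apart. Alas1 (1), Alas2 and Blvrb show groups that do not overlap, as does Cpox (2) by a smaller distance.

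Alas1 had 2 probe sets. On the brighter one (1 in the plots), the knockout samples KO903, KO904 and KO905 had 2319.7, 3544.8 and 3342.1, against 5904.7, 7898 and 5804.6 in WT4, WT5 and WT6. The highest knockout value lay well below the lowest wild-type value. The means were 3069 ± 657 in knockout livers and 6536 ± 1181 in wild-type livers (SD, n = 3 each), a log2 difference of -1.10 ± 0.17 (SE). That was the 104th largest difference in either direction among the 10620 probe sets. Measured from the wild-type mean, KO903 was lowest, at -1.47 on the log2 scale, with KO904 at -0.86 and KO905 at -0.95. The other probe set (2 in the plots), whose identifier marks probes that can bind related sequences, was far dimmer. It had 144.7, 246.7 and 76.8 in the knockout, and 243.5, 332.7 and 206.3 in wild type. Its mean was lower too, by a log2 difference of -0.79 ± 0.32 (SE), but KO904 lay above WT4 and WT6, and it was not called. The log2 difference was -0.40 without KO905 and -1.16 without KO904.

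Alas2, with 1 probe set, went the other way. Its signals were 894, 834.9 and 714 in the knockout samples and 377.2, 417.7 and 398.8 in the wild-type samples. Every knockout sample was well above every wild-type sample. The means were 814 ± 91.8 in knockout livers and 398 ± 20.3 in wild-type livers (SD, n = 3 each), a log2 difference of 0.9995 ± 0.13 (SE), the 136th largest in either direction. Levels of the 2 genes were not set against each other, since probe sets differ in brightness for the same amount of RNA.

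Because Alas2 is the erythroid form, markers of erythroid cells are given beside it. Of 31 listed markers 9 were on the table and tested, among them a single globin gene. Their summed signals were 2076, 2307 and 2088 in the knockout and 2378, 2243 and 2070 in wild type, with overlapping ranges and means of 2157 in the knockout and 2230 in wild type. Without Tfrc, the transferrin receptor, a choice made after its values were seen, the sums were 1839, 2018 and 1838 in the knockout and 1856, 1650 and 1775 in wild type. The ranges still overlapped, with means of 1898 in the knockout and 1760 in wild type, so the order of the means turned. Of the 9 markers, 6 had log2 differences above 0 (66.7%), against 56.4% of all genes tested. The part of erythroid cells in the Alas2 value was not tested. Hbb-b2, a beta globin, had 148.7, 214 and 170.4 in the knockout and 225, 247.5 and 203.9 in wild type, and Klf1, an erythroid transcription factor, had 119.5, 223.6 and 159.1 in the knockout and 137.8, 132.7 and 121.4 in wild type. Both are low signals and neither was called. Car2 had 430, 401.9 and 464.7 in the knockout and 362.9, 314.1 and 344.1 in wild type, without overlap. Its log2 difference was 0.33 ± 0.13 (SE, limma adjusted p = 0.206). Bpgm had overlapping groups, with log2 differences of 0.385 on its brighter probe set and -0.0055 on the other. Hbb-b2, Klf1, Car2 and Bpgm too were picked after their values were seen. Limma called 0 of the 9 (2 at an unadjusted p under 0.05, where 17.99% of all genes tested stood), with a median log2 difference of 0.10, against 0.03 over all 6604 genes tested. Tfrc had 237.4, 289.3 and 249.7 in the knockout and 522.8, 592.2 and 294.4 in wild type (log2 difference -0.77 ± 0.22 SE, limma adjusted p = 0.084), and was called lower without WT6. None of the 9 was at 0, and the other 22 markers were not analysed here. In bulk liver RNA, a change in the number of cells of a type and a change in RNA per cell cannot be told apart.

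**Figure D2:**
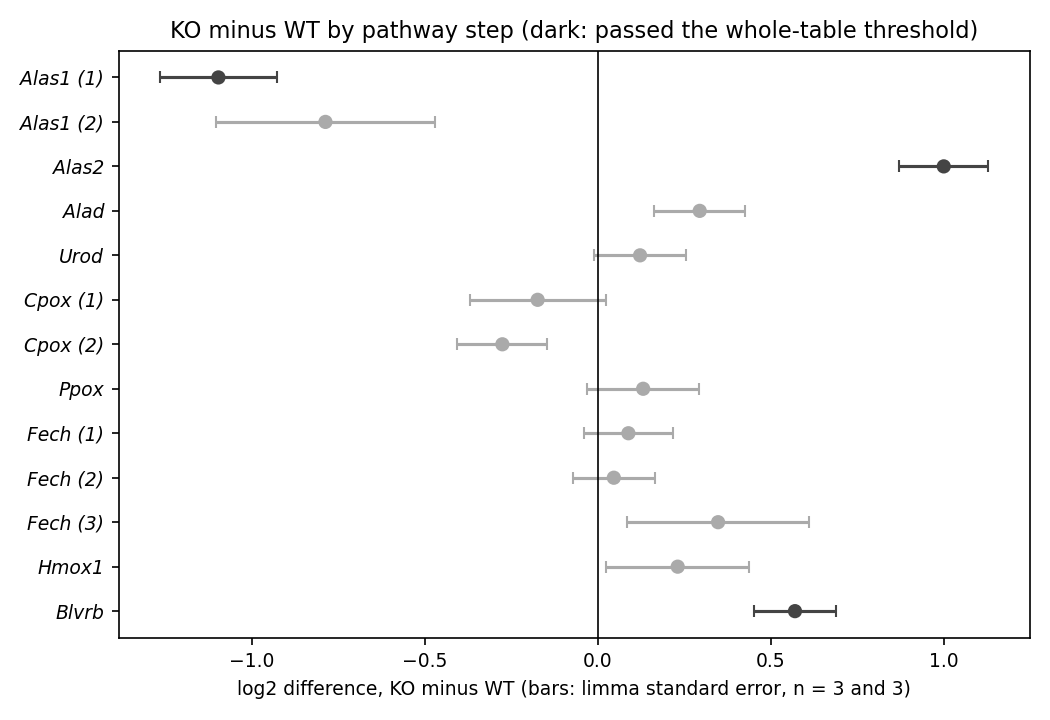
Log2 difference of knockout minus wild type for each heme enzyme probe set, in pathway order from top to bottom, with the limma standard error as bars and 3 samples per group. Alas1 lies to the left at -1.10 and -0.79 and Alas2 to the right at 0.9995, while the probe sets from Alad to Hmox1 lie between -0.28 and 0.35.

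The steps after ALA synthase showed smaller differences. Alad, which joins ALA molecules into porphobilinogen, had 2985.3, 2311 and 3118.3 in the knockout against 2430.5, 2058.4 and 2322 in wild type (log2 difference 0.29 ± 0.13 SE). KO903 and KO905 lay above all wild-type samples and KO904 lay among them. Urod, which trims uroporphyrinogen to coproporphyrinogen, had 551.7, 490 and 626.8 in the knockout and 543.6, 492.6 and 487.2 in wild type (log2 difference 0.12 ± 0.13 SE). Its groups overlapped.

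Cpox, the mitochondrial enzyme that turns coproporphyrinogen into protoporphyrinogen, had 2 probe sets with lower means in the knockout. The brighter one (2 in the plots) had 1142.7, 1105 and 1084.7 in the knockout and 1254.1, 1205.2 and 1619.1 in wild type (log2 difference -0.28 ± 0.13 SE). Its groups did not overlap, although KO903 and WT5 were close. The dimmer one (1 in the plots) had 609.9, 419.6 and 319.8 in the knockout, a wide spread around the wild-type values of 470.8, 507.4 and 499.6. Its log2 difference of -0.17 ± 0.20 (SE) turned to 0.0386 without KO905. Groups did not overlap in 4 of the 13 heme enzyme probe sets, and in 23.6% of all probe sets tested. Ppox, which oxidises protoporphyrinogen to protoporphyrin, was dim, at 203.8, 173.6 and 246.8 in the knockout and 180, 198.1 and 182.7 in wild type, with overlapping groups (log2 difference 0.13 ± 0.16 SE).

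Fech encodes ferrochelatase, which inserts iron into protoporphyrin to finish heme. Its 3 probe sets all had overlapping groups. The brightest (2 in the plots) had 2899.9, 2216.9 and 2414.3 in the knockout and 2498.4, 2267 and 2486.9 in wild type (log2 difference 0.05 ± 0.12 SE), and the dimmest (1 in the plots) gave 0.09 ± 0.13 (SE). The third (3 in the plots) gave 0.35 ± 0.26 (SE), with 2098.1, 1492.1 and 1903.3 in the knockout and 1857.8, 838.8 and 1838.3 in wild type. WT5 stood low on that probe set, and without WT5 the log2 difference was -0.027. The signs of the other Fech probe sets were no firmer: the brightest was at -0.062 without KO903, and the dimmest at -0.0071 without WT5. The interval of the brightest Fech probe set ran from -0.22 to 0.31 on the log2 scale (95%), so differences within those bounds were not resolved by these arrays.

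Breakdown starts with Hmox1, the inducible heme oxygenase, whose signals of 150.4, 157.8 and 94.6 in the knockout and 125, 100.1 and 104.9 in wild type were the lowest among the heme enzymes by mean. KO905 lay below all wild-type samples and KO903 and KO904 above them, so no difference was resolved (log2 difference 0.23 ± 0.21 SE, 95% interval -0.22 to 0.68). It was 0.11 without KO904 and 0.44 without KO905. Blvrb encodes biliverdin reductase B, which also reduces flavins. It had 2393.7, 2496.3 and 1992 in the knockout against 1623.6, 1455.5 and 1525 in wild type, with no overlap. Its means were 2294 ± 267 in knockout livers and 1535 ± 84.5 in wild-type livers (SD, n = 3 each), a log2 difference of 0.57 ± 0.12 (SE), the 597th largest in either direction. Blvrb was not among the called probe sets without KO903, KO904 or WT6 (log2 differences 0.54, 0.51 and 0.57).

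Kupffer cells, the liver macrophages that break down heme of aged red cells, express Hmox1, so their markers are given beside these genes. By their brightest probe sets, all 11 tested Kupffer markers had log2 differences above 0, as did 56.4% of all genes. Counting every probe set, 13 of 15 were above 0, against 54.6% of all probe sets. Those below were dimmer probe sets of Csf1r (-0.31) and C1qb (-0.11). The median over the 11 markers was 0.33, against 0.03 over all genes. Limma called 0 of the 11 markers (5 at an unadjusted p under 0.05, against 17.99% of all genes). Without WT4, 3 markers were called: Cd5l, Clec4f and Lyz2. Their summed signals were 8941, 6793 and 6698 in the knockout and 6743, 4862 and 5121 in wild type, with none at 0. By brightest probe set, the differences ran from 0.07 for Adgre1 to 0.73 for Lyz2, genes named here after their values were seen. The part of these cells in the Blvrb and Hmox1 values was not tested.

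**Figure D3:**
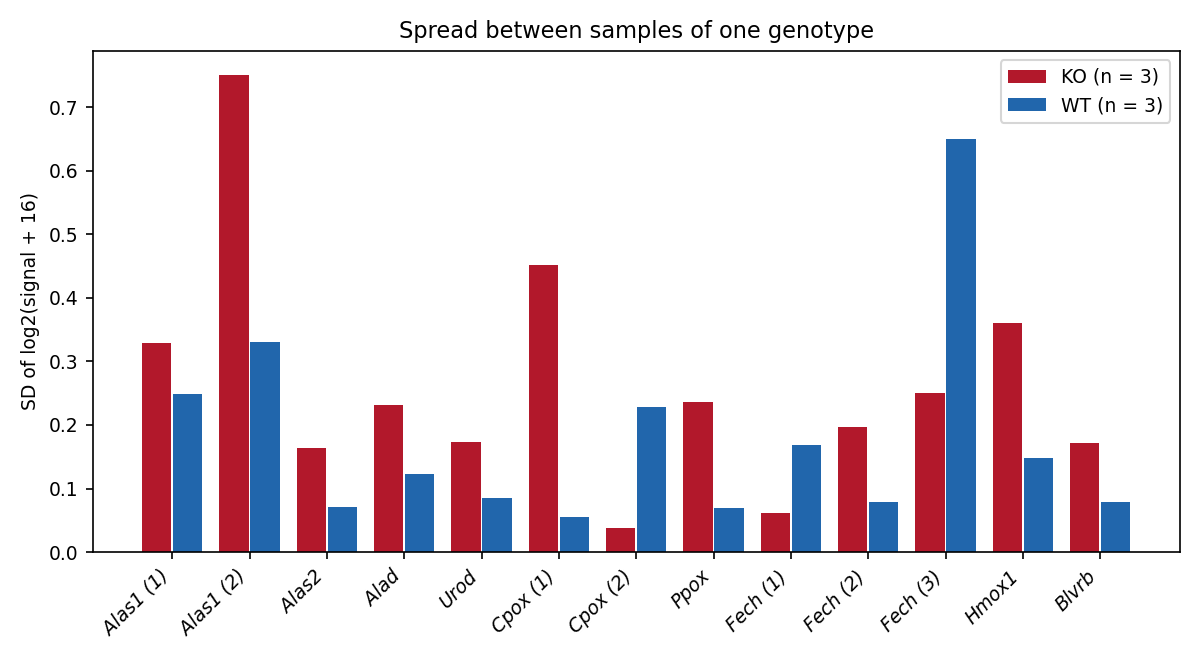
Standard deviation of log2(signal + 16) between the 3 samples of a genotype for each heme enzyme probe set, with knockout (red) left of wild type (blue). The knockout bar is the taller in 10 of 13 probe sets, with Alas1 (2) at 0.75 the tallest in the knockout and Fech (3) at 0.65 the tallest in wild type.

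The spread between samples of a genotype enters the calls of the same contrast, so it is given as a description. Its standard deviation was larger in the knockout than in wild type for 10 of the 13 heme enzyme probe sets, against 44.9% of all probe sets tested. The median standard deviation over all probe sets was 0.15 in the knockout and 0.17 in wild type. In wild type, Alas2 varied little, with 0.07, percentile 12.8 of all probe sets, against 0.16 in the knockout, percentile 54.4. Alas1 on its brighter probe set had 0.33 in the knockout, percentile 90.4, and 0.25 in wild type, percentile 74.3. The dimmer Cpox probe set had 0.45 in the knockout, percentile 97.0, and 0.06 in wild type. Probe sets of a gene did not share these spreads: the brighter Cpox probe set had 0.04 in the knockout and 0.23 in wild type.

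The remaining enzymes of the pathway showed no call. Of 4 listed, Uros, Hmox2 and Blvra were measured and limma called 0 of the 3 (0 at an unadjusted p under 0.05). Uros, which closes the porphyrin ring, had 651.9, 807.6 and 611.5 in the knockout and 707.6, 668.8 and 951.1 in wild type (log2 difference -0.16, 95% interval -0.51 to 0.20, limma adjusted p = 0.676). Hmox2, the constitutive heme oxygenase, had 655.6, 561 and 740 in the knockout and 642.2, 605.3 and 793.7 in wild type (log2 difference -0.06, 95% interval -0.38 to 0.27, limma adjusted p = 0.881). Blvra, the main biliverdin reductase of adults, had 476.9, 347 and 363.7 in the knockout and 330.2, 243.6 and 393.4 in wild type (log2 difference 0.29, 95% interval -0.12 to 0.71, limma adjusted p = 0.457). Groups overlapped for all 3, and how Blvrb and Blvra differ in their response was not tested.

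Transcripts of matrix proteins known to act on ALA synthase moved in opposite directions. Lonp1, the matrix protease that degrades ALAS1 when heme is plentiful, fell to 335.2, 342.9 and 261.3 in the knockout, against 756.8, 661.4 and 874.7 in wild type. The wild-type samples were all well above the knockout samples (log2 difference -1.25 ± 0.15 SE, limma adjusted p = 0.00142). Clpx, the matrix unfoldase that activates ALA synthase in yeast and in erythroid cells, rose to 659, 698.6 and 788.1 in the knockout, against 471.6, 464.4 and 307.7 in wild type (log2 difference 0.78 ± 0.17 SE, limma adjusted p = 0.0279). Its groups did not overlap, and the Clpx call ended when WT6 or any knockout sample was left out (adjusted p up to 0.102), while that of Lonp1 held in every fit run. Both were read from 1 probe set each.

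**Figure D4:**
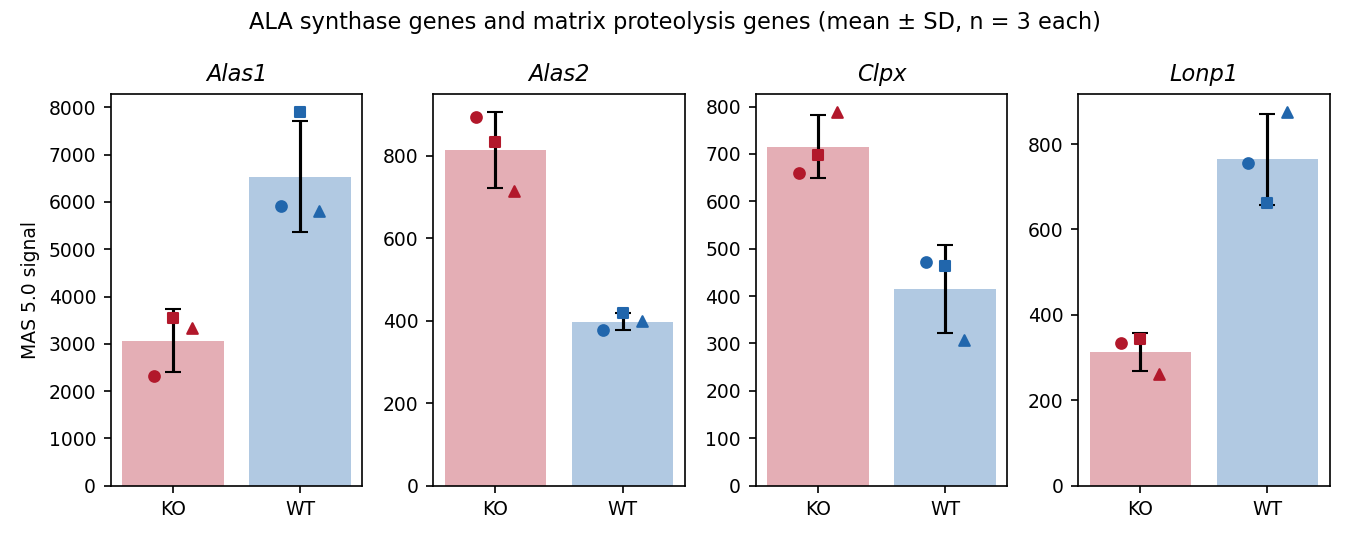
Signals of Alas1 (brighter probe set), Alas2, Clpx and Lonp1 in knockout (red) and wild-type (blue) livers, with bars at the mean, error bars at 1 SD (n = 3 each) and a point per sample. Alas1 and Lonp1 are lower in the knockout, Alas2 and Clpx higher, and no knockout point lies within the wild-type range.

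Those genes stood in a list of 19 tested regulators of heme synthesis and of Hmox1, of which 1 rose and 1 fell and 17 were not called. At an unadjusted p under 0.05 in limma stood 7 of the 19 (36.84%), against 17.99% of all genes. Over all genes, 2.14% were called higher and 1.80% lower. The list had a median log2 difference of -0.11. Ppargc1a, a coactivator that raises Alas1 in fasted mouse liver, is given because of its values: all 4 tested probe sets had log2 differences below 0, and the brightest had 172.5, 256.7 and 329.7 in the knockout and 305.6, 415.4 and 401.1 in wild type (-0.57 ± 0.21 SE, limma adjusted p = 0.186). The knockout sample KO905 lay above WT4, and none of the 4 was called. Nr1i3, the nuclear receptor CAR, which induces Alas1 with drug-metabolising enzymes, had overlapping groups (log2 difference 0.11, limma adjusted p = 0.76), as did Bach1, the heme-sensing repressor of Hmox1 (log2 difference -0.11, limma adjusted p = 0.772). Foxo1 (log2 difference -0.55), Rxra (-0.30), Nfe2l2 (0.30) and Nr1d1 (0.31) had groups without overlap on their brightest probe sets. Each was at an unadjusted p under 0.05 in limma and none was called. Like Nr1i3 and Bach1, they were chosen after their values were seen.

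In the list of transport and binding of heme, porphyrins and their precursors, 2 of 18 tested genes rose and 0 fell (3 at an unadjusted p under 0.05, against 17.99% of all genes), with a median of -0.01. Tspo, an outer mitochondrial membrane protein that binds porphyrins and cholesterol, had 1324.8, 1077.1 and 1266.1 in the knockout and 785.3, 692 and 620.6 in wild type (log2 difference 0.79 ± 0.13 SE, limma adjusted p = 0.00813). All knockout samples were above all wild-type samples. Of its other 2 probe sets, 1 was called (0.73, adjusted p = 0.0206) and 1 just missed (0.55, adjusted p = 0.0505). Abcg2, an exporter of porphyrins and many drugs, had 938.6, 806.5 and 1043.1 in the knockout and 612.7, 616.4 and 568.7 in wild type, without overlap (log2 difference 0.61 ± 0.13 SE, limma adjusted p = 0.0245). That call ended without KO903, KO905, WT4 or WT6 (adjusted p up to 0.0977). Tspo is abundant in macrophages too, and the Kupffer marker sums given above stand beside it. The part of these cells in the Tspo value was not tested.

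**Figure D5:**
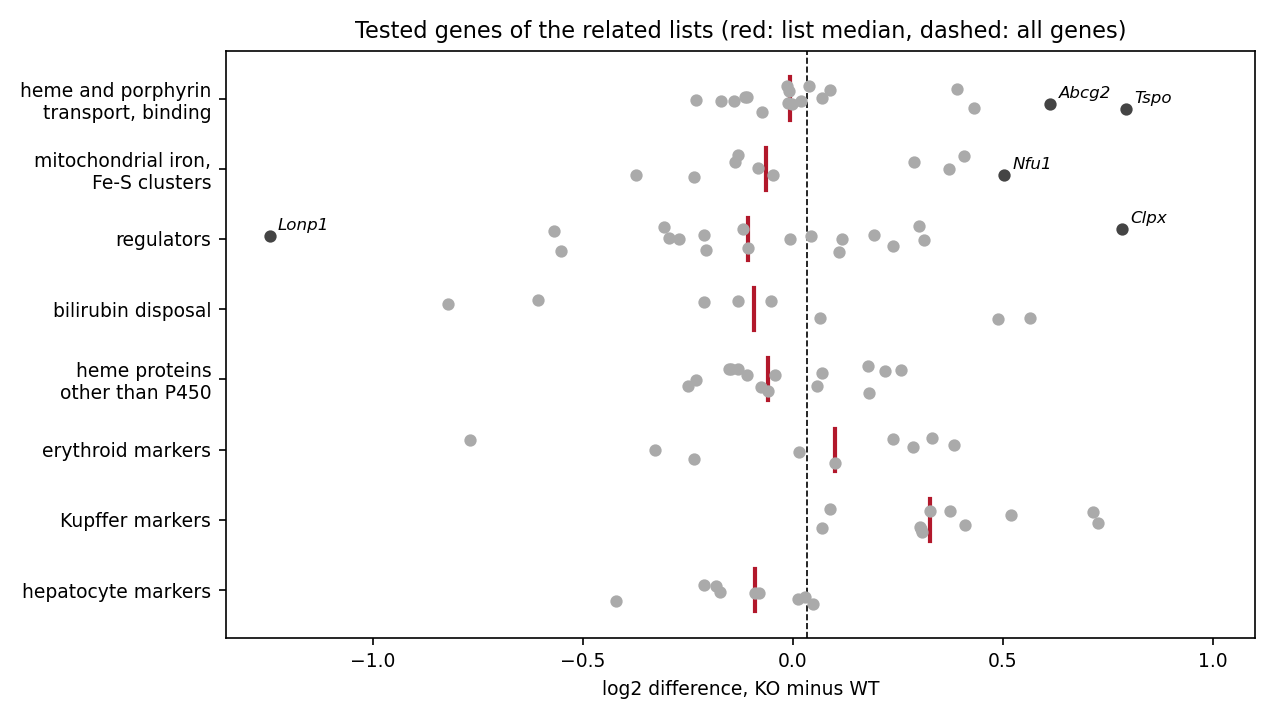
Log2 difference of knockout minus wild type for the tested genes of 8 related lists, 1 point per gene by its brightest probe set, dark where limma called it, with the list median in red and the median of all genes dashed. Called genes are Abcg2, Tspo, Nfu1, Clpx and Lonp1, and all Kupffer marker points lie right of 0.

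Iron reaches ferrochelatase in mitochondria, and in mammals the enzyme carries an iron-sulfur cluster. In the list of mitochondrial iron and iron-sulfur supply, 1 of 10 tested genes rose and 0 fell (4 at an unadjusted p under 0.05, against 17.99% of all genes), with a median of -0.06. Nfu1, a scaffold that hands over such clusters, had 1028.6, 939.2 and 1046.1 in the knockout and 642.3, 780.7 and 694.5 in wild type (log2 difference 0.50 ± 0.12 SE, limma adjusted p = 0.0435). Its groups were apart, but the call ended without any sample except WT5 (adjusted p up to 0.146), after median centring and without the intensity trend, and its other probe set gave 0.18 (adjusted p = 0.413). Without WT6 the call in this list was Isca1, another assembly factor (higher, adjusted p = 0.0379).

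Heme proteins and bilirubin disposal showed no gene called by its brightest probe set. Limma called 0 of 15 genes in a list of heme proteins other than P450 and their makers, with a median of -0.06. At an unadjusted p under 0.05 stood 2 of the 15, against 17.99% of all genes. The list includes Hmox2, and also Cyb5r3 and Uqcrh, which carry no heme. Cyb5r3 was among the 2. Tdo2, the heme enzyme that opens tryptophan, is given after its values were seen: a dimmer probe set was called lower (3361.7, 5281.7 and 4748.4 in the knockout, and 6260.2, 8081 and 7403.3 in wild type; log2 difference -0.71, limma adjusted p = 0.033), while the brighter gave -0.13 (adjusted p = 0.596). For bilirubin uptake, conjugation and export limma called 0 of 8 genes (4 at an unadjusted p under 0.05, against 17.99% of all genes; median -0.09). Abcc2, the canalicular exporter of conjugated bilirubin, likewise chosen after its values were seen, had 346.9, 265.5 and 407.7 in the knockout and 440.7, 625.3 and 800.6 in wild type, without overlap (log2 difference -0.82 ± 0.21 SE, limma adjusted p = 0.0572). It was called without WT4 (adjusted p = 0.0243), and without WT5 the call in this list was Slco1a4, an organic anion transporter (lower, adjusted p = 0.0158).

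The profiles nearest to those of Alas1 and Alas2 were found by the root mean square difference of centred log2 signals over the 6 arrays. Any tested probe set assigned to a gene other than the heme enzymes could come up. Other probe sets of the genes named are not given. The bright Alas1 probe set, which itself varied by 0.60 around its mean, was matched most closely by Upp2, a uridine phosphorylase (0.14). Upp2 had 2657.5, 4451.9 and 4283 in the knockout and 5912.6, 7835.4 and 6463.3 in wild type, with KO903 lowest and WT5 highest as for Alas1. Next came Mmut, the mutase that makes succinyl-CoA from methylmalonyl-CoA (0.16), Aacs, a cytosolic synthetase that activates acetoacetate (0.16), and Slc38a2, an amino acid transporter (0.18). Alas2, which varied by 0.51 around its mean, was matched most closely by Ywhaz, a 14-3-3 protein (0.08), Pla2g6, a calcium-independent phospholipase (0.08), Ndc1, a nuclear pore protein (0.10), and Cks1b, a subunit of cyclin-dependent kinases (0.12). Ywhaz had 386.6, 352.3 and 327.2 in the knockout and 155.7, 160.4 and 183.8 in wild type. By this measure, probe sets with a like difference between the genotypes and little spread within them come out as near.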

How the data were processed

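The table deposited by the authors holds linear intensity values, MAS 5.0 signals per the labels, with each array scaled to an average target of 350. Why it holds these probe sets is not stated in the sources used here. Single-factor scaling leaves distribution shapes as they were, and low signals are noisy. The number of arrays limits precision; sequencing depth does not apply.

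Groups came from the sample titles. Gene names are those of the platform annotation, updated through Entrez identifiers in a RefSeq table (GRCm38.p6). Of 11778 probe sets other than the 33 controls, 10776 had 1 symbol, 418 several and 584 none, and 0 symbols changed. Of the same 11778, 1158 had a mean signal under 100 and were not tested. Knockout minus wild type was fitted with limma (lmFit, eBayes with trend, two-sided) on log2(signal + 16), a scale that understates changes of low signals, with adjustment over all 10620 probe sets. An exact permutation test of 3 against 3 cannot go below 0.1. The fit was tested on simulated data. No pair of arrays shared over 0.0847% of values.

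The members, lists and tests were chosen with earlier results of these data known. Named were all members, every other pathway enzyme, up to 3 called genes per list by p, and the 4 nearest profiles; genes outside that rule are marked in the text. A gene's brightest probe set stood for it, except among the nearest profiles, where any tested probe set assigned to a gene could come up. Some genes stand in more than 1 list (Hmox2, Hnf4a, Cd163, Slc25a37). Alternatives were other scalings, pseudocounts (1, 64), signal filters (none, 200), eBayes without trend or robust, and each sample left out. R 4.3.3, limma 3.58.1, Python 3.11.15 and matplotlib 3.10.9 were used.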

Additional observations from a re-analysis of the deposited data

How the results depend on the processing

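No paired analysis was possible because knockout and wild-type samples share no number. Under the 14 alternatives run for them, Alas1 (brighter probe set) and Alas2 kept their direction and their call, at log2 -1.21 to -0.91 and 0.92 to 1.09. The heme enzymes were chosen on this contrast, so a kept call describes the fits and is no test. Blvrb also lost its call without the intensity trend, and the number of called heme enzyme probe sets was 2 there and 2 to 3 with a sample left out. With a sample left out, 4 probe sets turned sign: the dimmer Cpox probe set (-0.41 without KO903 to 0.0386 without KO905), the dimmest Fech probe set (-0.0071 without WT5 to 0.15 without WT6), the brightest Fech probe set (-0.062 without KO903 to 0.13 without KO904) and the third (-0.027 without WT5 to 0.54 without WT4). Without KO905 and without KO904, the log2 difference of Ppox was 0.0097 and 0.25, that of Urod 0.035 and 0.21 and that of Alad 0.21 and 0.43, and the brighter Cpox probe set was at -0.14 without WT6 and -0.36 without WT5. With a sample left out, the calls over all probe sets were 175 to 469 (82 to 238 higher and 93 to 231 lower), each from a fit with fewer samples. They were 193 without KO903, 175 without KO904, 229 without KO905, 252 without WT4 and 270 without WT6. Without WT5 they rose to 469, against 440 with all samples. After median centring the calls were 42.2% upward, against 49.5% as reported. Leaving out a sample gave these ranges of calls: regulators 0 to 1 higher, transport and binding 1 to 2 higher, mitochondrial iron 0 to 1 higher, bilirubin disposal 0 to 1 lower, erythroid markers 0 to 1 lower (Tfrc, without WT6) and Kupffer markers 0 to 3 higher. The mitochondrial iron list had 0 calls after median centring and without the trend. Counting every probe set gave 1 lower among heme proteins and 3 higher in transport and binding. The causes were not tested. Signals near 100, as for Hmox1, limit what could be seen.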
